A study of Rattus norvegicus with 6 samples.

Results

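Microtubule motors, dynactin, tubulins and the proteins that regulate them were examined in the trigeminal nerve of 3 inbred rat strains. The set holds 62 genes, each read by 1 probe, out of 21791 probes on the array. Members were chosen by a pattern of gene symbols, with earlier results of these data known. They were the kinesins with a numbered Kif symbol, the kinesin light chains, the cytoplasmic dynein subunits and the numbered dynactin subunits. The others were the alpha and beta tubulins, the end-binding (EB) proteins Mapre1, Mapre2 and Mapre3, and the Lis1 gene Pafah1b1. The groups were the congenic strain BDIX.BDIV-Mss4a, which carries the BDIV segment Mss4a on the BDIX background, the strain BDIV, and the strain BDIX. BDIX rats develop malignant schwannomas of this nerve after ethylnitrosourea, an alkylating carcinogen, and BDIV rats are resistant. All rats here were untreated and 85 days old. RNA of pooled nerves went to 1 Illumina rat BeadChip array for each strain and sex, so each strain had 1 male and 1 female pool. How many animals made up a pool is not stated in the sources used here. Every p-value therefore reflects the variation among these 6 pools.

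Microtubules are polymers of alpha and beta tubulin that run the length of an axon. Kinesins mostly carry cargo outward from the cell body, and cytoplasmic dynein, with its activator dynactin and its regulator Lis1, carries cargo back. Other kinesins build the spindle of dividing cells, and EB proteins bind the growing end of the microtubule. Axons depend on this transport, but Schwann cells and fibroblasts of the nerve use the same machinery.

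At a detection p under 0.01, between 42 and 45 members were detected per array. Of the 62 members 40 were detected on all 6 arrays, and 45 were detected on at least 2 arrays and were tested. The 17 others were Kif5c, Kif13a, Kif13b, Kif15, Kif18a, Kif20b, Kif2c, Kif9, Kif26b, Klc3, Mapre2, Tuba3b and Tubal3, detected on no array, and Kif1c, Kif11, Kif18b and Dynlrb2, detected on 1. Tuba8 was tested only because both BDIV arrays detected it, so any call of it had to favour BDIV. Over all tested probes, male minus female log2 differences had an SD of 0.45 in the congenic, 0.21 in BDIV and 0.515 in BDIX. Of the markers that define the tissue, 6 of 7 myelinating Schwann cell genes and 10 of 12 neuronal genes were detected on all 6 arrays. The neuronal genes Calca and Scn9a were detected on none.

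The promoters of 4 members whose levels changed are shown as background sequence. Kif5b and Mapre1 had the largest decreases in the congenic strain, Dynlt5 had the largest increase in BDIV among members with a sequence, and Tuba4a was the member called in both strains. Each run covers 250 bases before to 50 after the start of the gene, 5′ to 3′, from RefSeq on the GRCr8 build, at chr17:56185136-56185435 (+ strand), chr3:162678820-162679119 (+ strand), chr5:122971323-122971622 (+ strand) and chr9:84162535-84162834 (- strand). Capitals mark matches, on either strand, to the TATA box TATAAA, the CCAAT box, the GC box GGGCGG, the E box CACGTG, the cAMP response element TGACGTCA or the NRF1 motif (GCGC, AT and GCGC joined).
Kif5b: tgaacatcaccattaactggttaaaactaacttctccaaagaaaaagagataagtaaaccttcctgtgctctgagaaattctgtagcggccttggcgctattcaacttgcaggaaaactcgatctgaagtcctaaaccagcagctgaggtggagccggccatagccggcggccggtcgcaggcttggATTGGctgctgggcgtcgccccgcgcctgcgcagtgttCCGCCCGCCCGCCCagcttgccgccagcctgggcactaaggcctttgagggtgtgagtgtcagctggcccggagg
Mapre1: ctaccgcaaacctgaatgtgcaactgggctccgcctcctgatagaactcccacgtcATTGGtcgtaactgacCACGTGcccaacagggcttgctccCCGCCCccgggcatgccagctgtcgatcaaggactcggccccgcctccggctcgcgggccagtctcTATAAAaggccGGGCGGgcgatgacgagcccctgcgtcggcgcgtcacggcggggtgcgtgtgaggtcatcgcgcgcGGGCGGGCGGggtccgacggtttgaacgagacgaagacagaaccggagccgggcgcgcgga
Dynlt5: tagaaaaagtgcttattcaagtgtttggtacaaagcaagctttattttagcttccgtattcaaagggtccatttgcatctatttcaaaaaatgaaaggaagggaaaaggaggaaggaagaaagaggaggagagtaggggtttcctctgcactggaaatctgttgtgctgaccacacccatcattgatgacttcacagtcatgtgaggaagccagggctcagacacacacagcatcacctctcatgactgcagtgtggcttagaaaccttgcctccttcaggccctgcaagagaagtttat
Tuba4a: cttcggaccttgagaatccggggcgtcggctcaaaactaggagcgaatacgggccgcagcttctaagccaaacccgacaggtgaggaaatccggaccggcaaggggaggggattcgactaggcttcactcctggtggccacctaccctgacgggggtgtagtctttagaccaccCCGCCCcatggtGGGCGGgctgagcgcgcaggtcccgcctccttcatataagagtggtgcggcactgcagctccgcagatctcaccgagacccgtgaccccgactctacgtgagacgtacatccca
Overlapping GC boxes were each counted, which gave 3 in Kif5b, 4 in Mapre1 and 2 in Tuba4a. None of the 6 motifs was found in this window of Dynlt5. Of 55 members with a sequence, 38 (69.1%) held a GC box, against 34.9% of 27457 promoters of all genes in the table. A CCAAT box stood in 30 members (54.5%, against 37.7%), a cAMP response element in 6 (10.9%, against 1.91%), a TATA box in 6 (10.9%, against 14.3%), an E box in 6 (10.9%, against 6.65%) and the NRF1 motif in 1 (1.82%, against 0.932%). These matches describe letters in a window and not binding. Pafah1b1, Dynlt3, Dynll2, Dynlrb1, Dctn6, Kif5a and Kif13b are named without a sequence.

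In the congenic strain 5 of the 45 tested members differed from BDIX, 4 lower and 1 higher. The conventional kinesin heavy chain Kif5b and the EB protein Mapre1 were lowest relative to BDIX, with log2 differences of -2.40 and -1.91. In BDIV 17 members differed from BDIX, 14 higher and 3 lower, led by Pafah1b1, whose probe read 9.55-fold higher. Tuba4a was the only member called in both comparisons, lower in the congenic and higher in BDIV. Calls rest on limma with a Benjamini-Hochberg adjusted p under 0.05 over all 10484 tested probes. Beside these counts, 11.9% of all probes were called in the congenic against BDIX (4.33% higher and 7.56% lower), where 5 of 45 members is 11.1%. In BDIV against BDIX 27.3% of all probes were called (13.7% higher and 13.6% lower), and 31.1% of the members were called higher and 6.67% lower. The median member difference was 0.04 in the congenic and 0.18 in BDIV, with all tested probes at 0.00 and -0.03. At an unadjusted p under 0.05, 15 members passed in the congenic (33.6% of all probes did) and 23 in BDIV (41.8% of all probes). Both comparisons share the BDIX arrays.

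**Figure D1:**
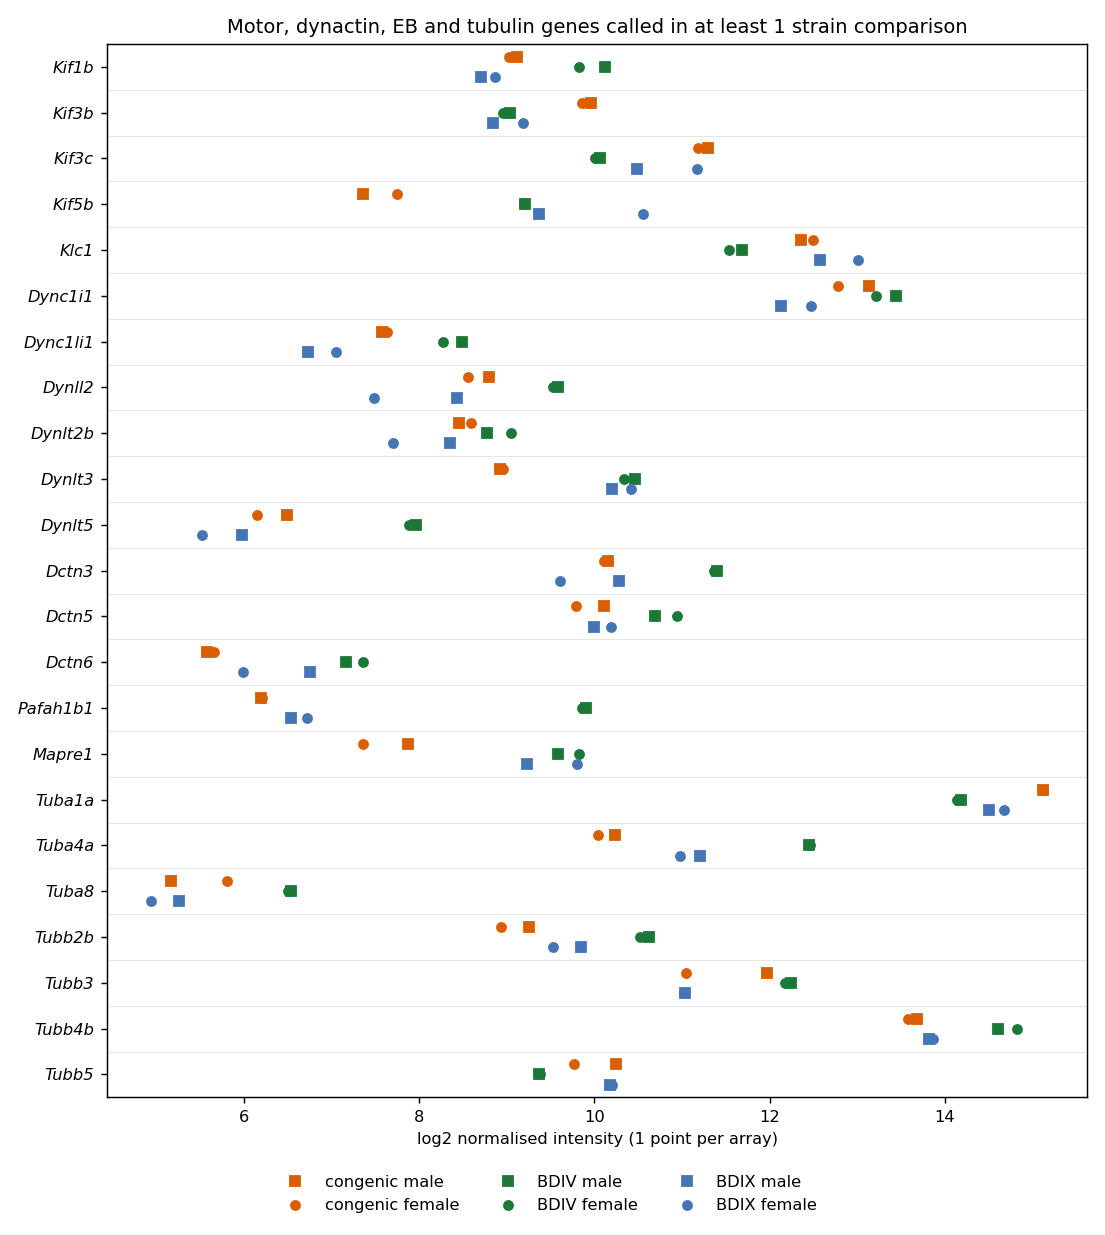
Log2 normalised intensity (horizontal axis) of the 23 members called in at least 1 strain comparison, 1 point per array, with squares for male and circles for female pools. The BDIV pair of Pafah1b1 lies at 9.90 and 9.86, and the congenic pairs of Kif5b and Mapre1 lie below all other arrays.

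**Figure D2:**
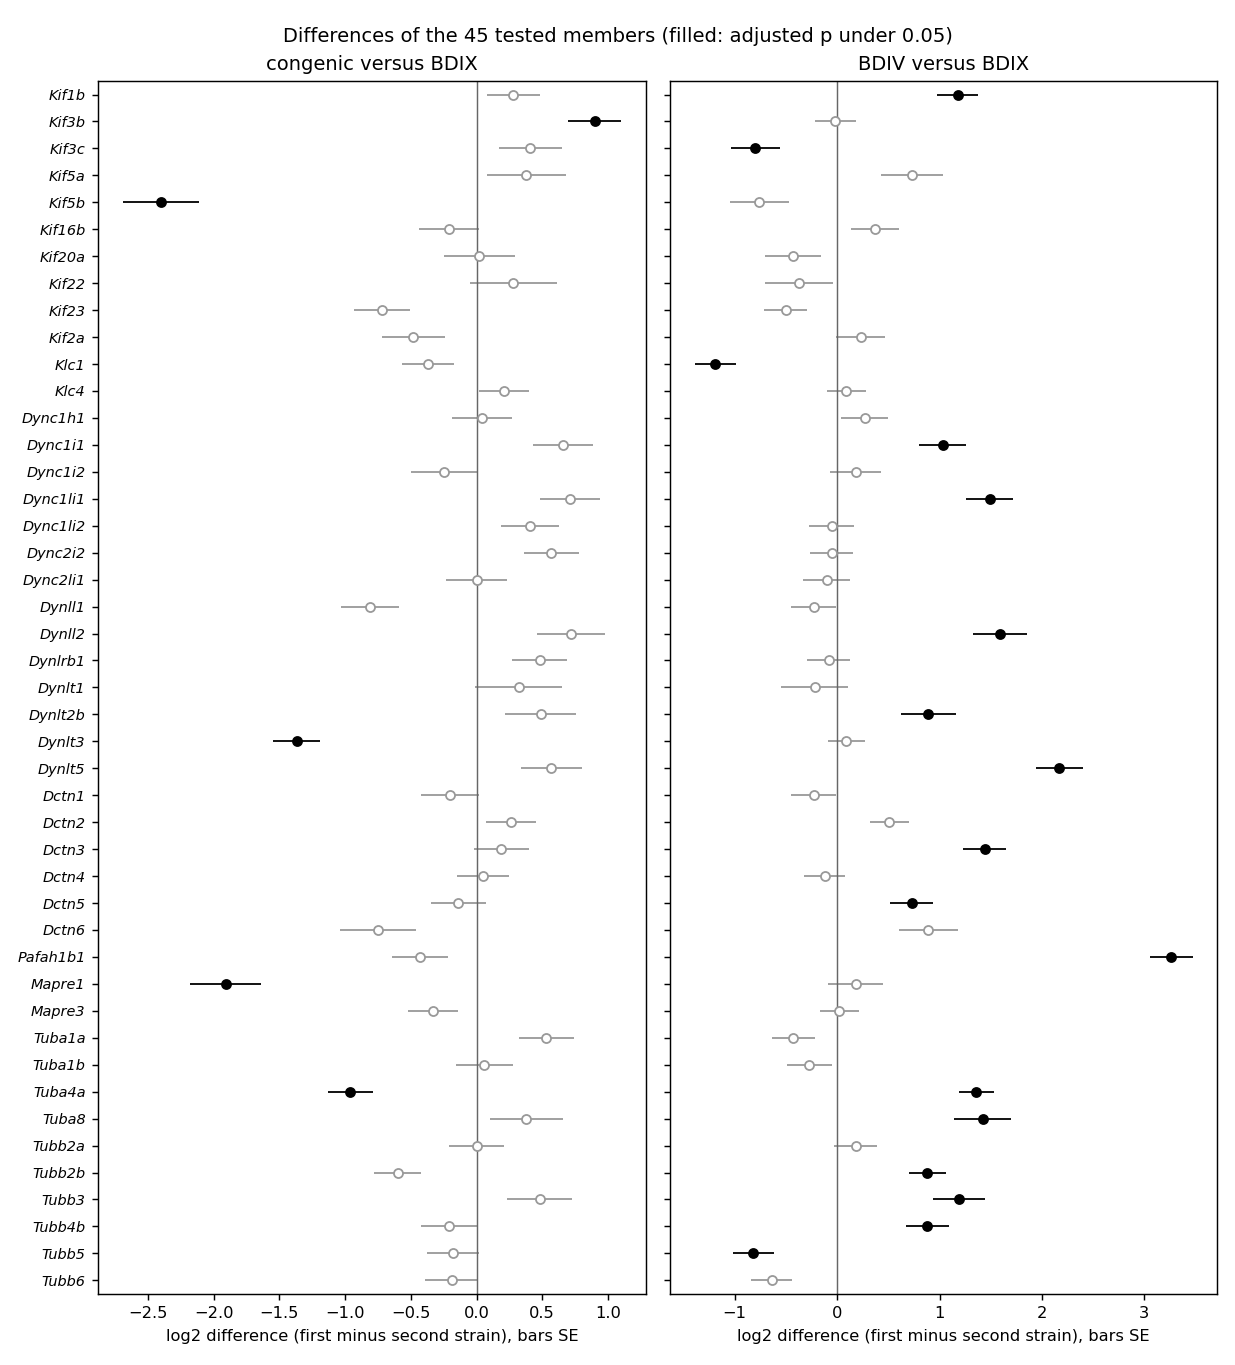
Log2 differences with SE for the 45 tested members, congenic minus BDIX on the left and BDIV minus BDIX on the right, with filled points for calls. The left panel has 5 filled points and the right panel 17.

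**Figure D3:**
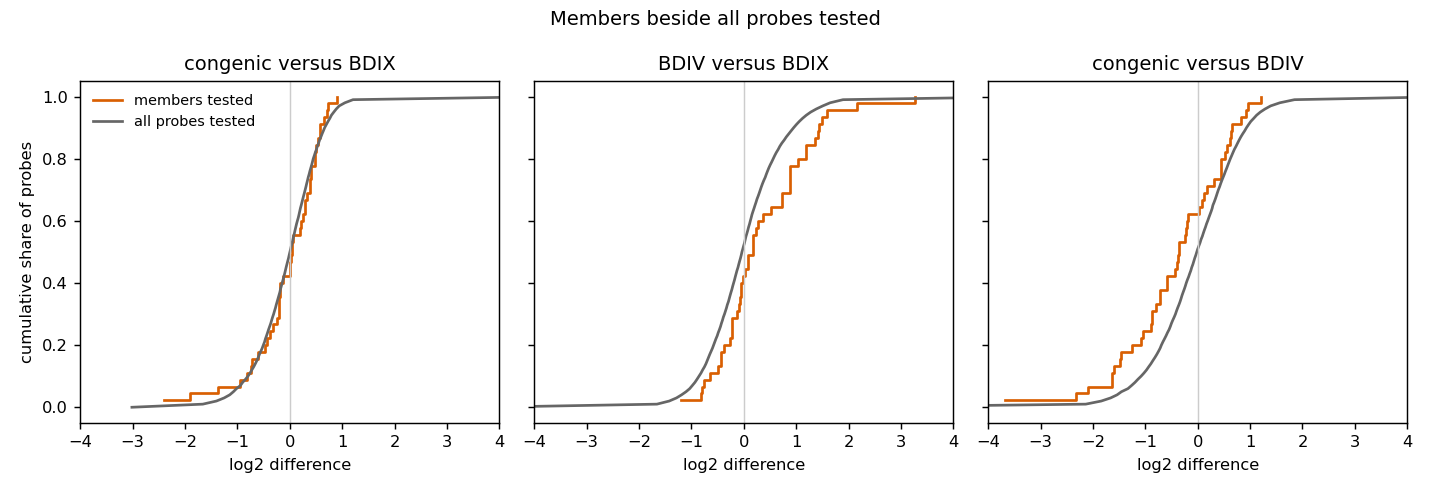
Cumulative share of the 45 tested members (stepped line) and of all 10484 tested probes (smooth line) by log2 difference in each strain comparison. The member medians were 0.04 (congenic minus BDIX), 0.18 (BDIV minus BDIX) and -0.35 (congenic minus BDIV).

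Among kinesins that carry axonal and other cargo, 6 of 10 were tested. Kif5b, the heavy chain of conventional kinesin found in all tissues, had a log2 normalised intensity of 7.36 and 7.75 in the congenic male and female pools, 9.21 and 9.19 in the BDIV pools and 9.37 and 10.55 in the BDIX pools. Both congenic arrays lay below the other 4. The congenic difference from BDIX was -2.40 ± 0.29 (log2 ± SE, adjusted p = 0.00976 from limma), which is 5.28-fold lower, and it passed whichever array was left out. BDIV against BDIX gave a Kif5b difference of -0.76 ± 0.29, which was not called (adjusted p = 0.0897). The neuronal paralogue Kif5a had 7.31 and 6.74 in the congenic, 7.60 and 7.15 in BDIV and 6.41 and 6.89 in BDIX, with no call and with congenic values that overlapped BDIX. The other neuronal paralogue, Kif5c, was not detected on any array, with a detection p that was an average over bead types.

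Kif3b, a motor subunit of heterotrimeric kinesin, had log2 intensities of 9.96 and 9.86 in the congenic, 9.04 and 8.95 in BDIV and 8.84 and 9.18 in BDIX. It was the only member called higher in the congenic than in BDIX, by 0.90 ± 0.20 (adjusted p = 0.0353). That call was lost without the congenic male (adjusted p = 0.197), the congenic female (0.103) or the BDIV female array (0.0518), and under median scaling the difference was 0.23. Its paralogue Kif3c had 11.30 and 11.18 in the congenic, 10.06 and 10.01 in BDIV and 10.49 and 11.17 in BDIX. BDIV was below BDIX by 0.80 (-0.80 ± 0.24, adjusted p = 0.043), a call lost without the BDIX female (-0.41, adjusted p = 0.0632), the BDIV male (0.0865) or the BDIV female array (0.349). It was also lost under median scaling (-0.56, 0.0885), with no detection filter (0.0708) and with no intensity trend (0.0571). Kif1b, a motor of mitochondria and synaptic vesicle precursors, had 9.12 and 9.02 in the congenic, 10.12 and 9.82 in BDIV and 8.71 and 8.87 in BDIX. Both BDIV pools were above the rest, and the difference from BDIX of 1.18 ± 0.20 (adjusted p = 0.00744) was lost only without the BDIV male array (0.0627). Kif16b, a motor of early endosomes, was called in no strain comparison.

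Kinesin light chains link conventional kinesin to cargo. Klc1 had log2 intensities of 12.36 and 12.50 in the congenic, 11.68 and 11.54 in BDIV and 12.58 and 13.01 in BDIX. BDIV pools were the lowest, with a difference from BDIX of -1.19 ± 0.20 (adjusted p = 0.00803, and 0.131 without the BDIV female array). The congenic difference for Klc1 was -0.37 ± 0.20 (adjusted p = 0.24). Klc4 had differences of 0.21 ± 0.19 in the congenic and 0.09 ± 0.19 in BDIV, neither called, and Klc3 was not detected on any array.

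Of 9 kinesins of the mitotic spindle and cell division, 3 were tested and none was called in any strain comparison. Kif22 had 8.67 and 7.71 in the congenic, 7.53 and 7.56 in BDIV and 8.58 and 7.23 in BDIX. The male pool was above the female pool in the congenic and in BDIX. The BDIX values overlapped those of both other strains, and both congenic values lay above both BDIV values. Kif23 was not detected on the congenic arrays. Kif20a and Kif23 had BDIV minus BDIX differences of -0.43 ± 0.27 and -0.50 ± 0.21. Markers of cycling cells outside this family had a summed intensity (linear scale, 8 genes) of 7454 and 8081 in the congenic, 3954 and 4066 in BDIV and 6293 and 5272 in BDIX. Pcna was the brightest of these, at log2 12.57 and 12.77 in the congenic, and weighs most in the sum. Ccnb2 had 8.60 and 6.64 in the congenic, 7.12 and 7.10 in BDIV and 8.15 and 6.43 in BDIX. Like Kif22, Ccnb2, Cdk1 and Ccna2 had the male pool above the female pool in the congenic and in BDIX. Male minus female differences were positive in 4 tested markers and negative in 3 (Aurkb, Mcm2 and Pcna), none called by limma. Of 7 tested 2, Mcm2 and Mcm6, were lower in BDIV than in BDIX (28.6%, beside 13.6% of all probes lower). The part of cycling cells in the kinesin values was not tested. Kif2a, a kinesin that takes microtubules apart, was not detected on the congenic arrays and was not called in BDIV (0.23 ± 0.24).

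Of 15 dynein subunits 14 were tested. Against BDIX, 1 was called lower and none higher in the congenic (7.14%, beside 7.56% of all probes lower), and 5 were called higher and none lower in BDIV (35.7%, beside 13.7% of all probes higher). The motor heavy chain gene Dync1h1 had 14.34 and 14.29 in the congenic, 14.66 and 14.42 in BDIV and 14.11 and 14.43 in BDIX. The BDIX values overlapped those of both other strains, and the congenic values lay below the BDIV values. The intermediate chain genes link the motor to dynactin. Dync1i1, the form enriched in neurons, had 13.14 and 12.78 in the congenic, 13.44 and 13.22 in BDIV and 12.13 and 12.47 in BDIX. Its BDIV minus BDIX difference was 1.03 ± 0.23 (adjusted p = 0.0175), lost without the BDIV male (0.108) or female array (0.101). Dync1i2, the widely expressed form, differed by 0.18 ± 0.25 between BDIV and BDIX and was not called. The light intermediate chains bind cargo adaptors. Dync1li1 had 7.57 and 7.63 in the congenic, 8.49 and 8.27 in BDIV and 6.73 and 7.05 in BDIX, so that the groups were separate and the congenic lay between. BDIV was above BDIX by 1.49 ± 0.23 (adjusted p = 0.0061, at most 0.0416 with any 1 array left out). Its paralogue Dync1li2 differed by -0.05 ± 0.22 between BDIV and BDIX. Of the dynein of cilia, Dync2i2 and Dync2li1 were not called, and the light chain Dynlt2b is given below.

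Dynein light chains hold the motor complex together and include the Tctex, LC8 and roadblock families. Dynlt5, of the Tctex family, had 6.49 and 6.15 in the congenic, 7.96 and 7.88 in BDIV and 5.98 and 5.52 in BDIX. BDIV pools stood above all others, by 2.17 ± 0.23 over BDIX (4.51-fold, adjusted p = 0.00276, at most 0.021 with any 1 array left out). Dynlt3, also of the Tctex family, had 8.92 and 8.96 in the congenic, 10.46 and 10.34 in BDIV and 10.20 and 10.42 in BDIX. Here the congenic pools stood below all others, by 1.37 against BDIX (-1.37 ± 0.18, adjusted p = 0.0125, at most 0.0339 with any 1 array left out), while BDIV and BDIX overlapped. Dynlt2b, of the dynein of cilia, had 8.45 and 8.59 in the congenic, 8.77 and 9.05 in BDIV and 8.35 and 7.70 in BDIX. BDIV was highest, above BDIX by 0.89 ± 0.27 (adjusted p = 0.0452), a call lost without the BDIX female (0.46, adjusted p = 0.107), the BDIV male (0.06) or the BDIV female array (0.41). Of the LC8 pair, Dynll2 had 8.80 and 8.56 in the congenic, 9.58 and 9.53 in BDIV and 8.43 and 7.48 in BDIX. BDIV was above BDIX by 1.59 ± 0.26 (adjusted p = 0.00691, and 0.0662 without the BDIV female array). Its paralogue Dynll1 had a congenic difference of -0.81 ± 0.22 just short of the threshold (adjusted p = 0.0519) and a BDIV difference of -0.23 ± 0.22. Dynlrb1, the roadblock chain, and Dynlt1 were not called.

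All 6 dynactin subunits with a numbered Dctn symbol were tested, and 2 were higher in BDIV than in BDIX (33.3%, beside 13.7% of all probes higher). This share does not cover the whole complex, since the subunit Actr10 is counted with the motor adaptors below. Dctn3, of the shoulder of the complex, had 10.16 and 10.11 in the congenic, 11.40 and 11.37 in BDIV and 10.28 and 9.61 in BDIX. BDIV pools were above the rest, by 1.44 ± 0.21 over BDIX (adjusted p = 0.00583, and 0.0583 without the BDIV female array). Dctn5 and Dctn6 sit together at the pointed end. Dctn5 had 10.11 and 9.79 in the congenic, 10.69 and 10.94 in BDIV and 10.00 and 10.19 in BDIX, with BDIV higher by 0.73 ± 0.21 (adjusted p = 0.0376). This Dctn5 call was lost without either BDIV array (0.0948 for the male, 0.38 for the female) or either congenic array (0.0505 and 0.0544). Dctn6 had 5.58 and 5.66 in the congenic, where it was not detected, 7.16 and 7.36 in BDIV and 6.75 and 5.99 in BDIX, with a BDIV difference of 0.89 ± 0.29 (adjusted p = 0.0574). The subunit that binds microtubules, Dctn1, differed by -0.20 ± 0.22 in the congenic and -0.23 ± 0.22 in BDIV, and Dctn2 and Dctn4 were not called either.

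Pafah1b1 encodes Lis1, which binds the dynein motor and is needed for neuronal migration and axonal transport. Its log2 intensity was 6.19 and 6.20 in the congenic, 9.90 and 9.86 in BDIV and 6.53 and 6.72 in BDIX. All 6 arrays detected it, and the BDIV pair stood apart from the other 4. BDIV exceeded BDIX by 3.26 ± 0.21 (adjusted p = 0.000596), and the largest adjusted p with 1 array left out was 0.00105. The congenic differed from BDIX by -0.43 ± 0.21 (adjusted p = 0.199). A single probe read this gene, and a sequence difference between strains under the probe cannot be told apart from a difference in transcript level, here and for every member.

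Mapre1, the EB protein that recruits other factors to growing microtubule ends, had 7.87 and 7.36 in the congenic, 9.58 and 9.82 in BDIV and 9.23 and 9.80 in BDIX. The congenic pools were below all others, by 1.91 against BDIX (-1.91 ± 0.27, 3.75-fold lower, adjusted p = 0.0141, at most 0.0261 with any 1 array left out). BDIV differed from BDIX by 0.18 ± 0.27. Mapre3, the form enriched in neurons, was not called (-0.33 ± 0.19 in the congenic and 0.02 ± 0.19 in BDIV), and Mapre2 was not detected.

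Tubulins form the track. Of 12 genes 10 were tested. Against BDIX, 1 was called lower in the congenic (10%, beside 7.56% of all probes lower). In BDIV 5 were called higher (50%, beside 13.7% of all probes) and 1 lower (10%, beside 13.6%). The 5 include Tuba8, whose direction the detection filter had set. Tuba4a had 10.24 and 10.04 in the congenic, 12.45 and 12.46 in BDIV and 11.21 and 10.98 in BDIX, so the strains were separate, with BDIX in the middle. The congenic was lower by 0.96 against BDIX (-0.96 ± 0.17, adjusted p = 0.0236), a call lost without the congenic male (0.107) or female array (0.155), and under the processed intensities of the authors (0.0629). BDIV was higher than BDIX by 1.36 ± 0.17 (adjusted p = 0.00445, and 0.0546 without the BDIV female array). Tuba8 had 5.17 and 5.80 in the congenic, 6.54 and 6.50 in BDIV and 5.26 and 4.94 in BDIX. It was detected on the BDIV arrays alone, at least 2.54-fold above BDIX (adjusted p = 0.0118). For such genes the bound compares the mean of the brighter pair with a floor on each dim array, which is the lowest signal of any detected probe there or the gene's own reading if that is higher. Tuba1a, the main alpha tubulin of neurons, had 15.12 and 15.12 in the congenic, 14.18 and 14.14 in BDIV and 14.50 and 14.68 in BDIX. The congenic pools were highest, but neither Tuba1a nor Tuba1b was called against BDIX. Their congenic minus BDIX differences depended on the scaling: Tuba1a had 0.53 and Tuba1b 0.06 here, 0.99 and 0.71 under median scaling, 1.19 and 0.89 under cyclic loess, and 1.79 and 1.51 with the authors' processed values.

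Among beta tubulins, Tubb3, the neuronal form, had 11.97 and 11.04 in the congenic, 12.24 and 12.18 in BDIV and 11.03 and 11.02 in BDIX. The BDIV pools were highest, by 1.19 ± 0.25 over BDIX (adjusted p = 0.016, and 0.158 without the BDIV female array). In the congenic only the male pool was near the BDIV level. Tubb2b, prominent in developing neurons, had 9.25 and 8.93 in the congenic, 10.62 and 10.52 in BDIV and 9.85 and 9.53 in BDIX, with BDIV higher by 0.88 ± 0.18 (adjusted p = 0.0132). Without the BDIV male or female array its adjusted p was 0.0617 or 0.204. Tubb4b, a widely expressed form also found in cilia, had 13.68 and 13.58 in the congenic, 14.61 and 14.82 in BDIV and 13.82 and 13.86 in BDIX. Its BDIV difference of 0.88 ± 0.21 (adjusted p = 0.0215) was lost without either congenic array (0.0684 and 0.0706) or either BDIV array (0.0796 for the male, 0.254 for the female), and under cyclic loess it was 0.39 (0.168) and with the authors' processed values 0.49 (0.187). Tubb5, found in most cells, had 10.25 and 9.77 in the congenic, 9.37 and 9.38 in BDIV and 10.18 and 10.20 in BDIX. It was the only tubulin called lower in BDIV (-0.82 ± 0.20, adjusted p = 0.0248), with adjusted p of 0.19 and 0.137 without the BDIV male or female array. Tubb6 had a BDIV difference of -0.64 ± 0.20 (adjusted p = 0.0528), and Tubb2a differed by 0.18 ± 0.21. Transcripts of tubulin genes are near-identical in places, and cross-hybridisation between them was not tested.

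Of 10 neuronal markers tested outside the family, 8 were higher in BDIV than in BDIX (80%) and none lower. Snap25 (0.48 ± 0.28) and Nefl (-0.21 ± 0.23) were not called. In the congenic 1 was higher and 1 lower. Over all probes 13.7% were higher and 13.6% lower in BDIV, and 4.33% and 7.56% in the congenic. The summed intensity of 12 neuronal genes was 93003 and 76100 in the congenic, 127418 and 126143 in BDIV and 70039 and 83950 in BDIX. Calca and Scn9a of this list were not detected. Tac1, also of this list, was detected on all 6 arrays and was higher in BDIV than in BDIX (1.17 ± 0.18, adjusted p = 0.00646 from limma). Of 7 myelinating Schwann cell markers 5 were lower in BDIV and 3 in the congenic, with summed intensities of 55612 and 61199 in the congenic, 40338 and 37880 in BDIV and 65482 and 86954 in BDIX. Of 7 fibroblast and matrix markers 5 were lower in BDIV and 2 in the congenic, of 5 erythrocyte markers 5 and 3, and of 4 neutrophil markers 3 and 0. Neither the 3 oligodendrocyte nor the 4 ciliated cell markers tested were called in either comparison, and the muscle gene Acta1 was higher in both. Oligodendrocyte genes differed between the pools of a strain. Their summed intensity over 5 genes was 409 and 2302 in the congenic male and female, 574 and 1788 in BDIV and 647 and 246 in BDIX. The part of cell composition in the member values was not tested, and fewer cells of a type and less RNA per cell cannot be told apart in these pools.

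The congenic and BDIV, the donor of its segment, differed in 20 of the 45 members, 5 higher and 15 lower in the congenic. Of all probes 37.0% were called (18.1% higher and 18.9% lower), and 11.1% of members were higher and 33.3% lower. At an unadjusted p under 0.05, 26 members passed, and 48.9% of all probes did. This comparison uses the same congenic and BDIV arrays as those above and is no separate evidence for them. The lower genes held 8 of the 21 tested dynein, dynactin and Lis1 genes, where none was higher. Pafah1b1 differed by -3.68 ± 0.21 (adjusted p = 0.000391), Tuba4a by -2.32 ± 0.17 (0.000737) and Mapre1 by -2.09 ± 0.27 (0.00285). Kif5b differed by -1.64 ± 0.29 (0.00652), Dynlt5 by -1.60 ± 0.23 (0.00342), Tubb2b by -1.48 ± 0.18 (0.00228) and Dynlt3 by -1.46 ± 0.18 (0.00253). These 7 calls passed whichever array was left out.

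The other 13 calls between the congenic and BDIV were each lost in at least 1 fit with 1 array left out. In those fits a smaller share of all probes was called as well. Dctn6, not detected in the congenic, was at least 3.11-fold lower (adjusted p = 0.00652) and Dctn3 differed by -1.25 ± 0.21 (0.00593), both lost only without the BDIV female array (0.0662 and 0.063). Kif3c was higher by 1.20 ± 0.24 (0.00894), lost without the congenic male (0.0624) or the BDIV female array (0.083) and under median scaling (0.41, adjusted p = 0.149). Tuba8 was at least 1.92-fold lower (0.0249), lost without the congenic male array (-0.66, 0.121) and not tested without a BDIV array. Dctn5 (-0.87 ± 0.21, 0.0168) was lost without the congenic female (0.255), BDIV male (0.0537) or BDIV female array (0.187). Tubb4b (-1.08 ± 0.21, 0.00832) was lost without the congenic male (0.068), congenic female (0.141) or BDIV female array (0.105). Kif1b, Kif3b, Klc1, Dync1li1, Dynll2, Tuba1a and Tubb5 lost their calls whichever of the 4 arrays compared was left out, with adjusted p reaching 0.155 for Kif1b, 0.142 for Kif3b, 0.275 for Klc1, 0.312 for Dync1li1, 0.306 for Dynll2, 0.217 for Tuba1a and 0.462 for Tubb5. Of these, Tuba1a (0.96 ± 0.21), Kif3b (0.92 ± 0.20), Klc1 (0.82 ± 0.20) and Tubb5 (0.64 ± 0.20) were higher in the congenic with all 6 arrays, and Kif1b (-0.90 ± 0.20), Dynll2 (-0.87 ± 0.26) and Dync1li1 (-0.79 ± 0.23) were lower. Median scaling put Kif3b at 0.09, Klc1 at 0.03 and Tubb5 at -0.18, the last with its sign turned.

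**Figure D4:**
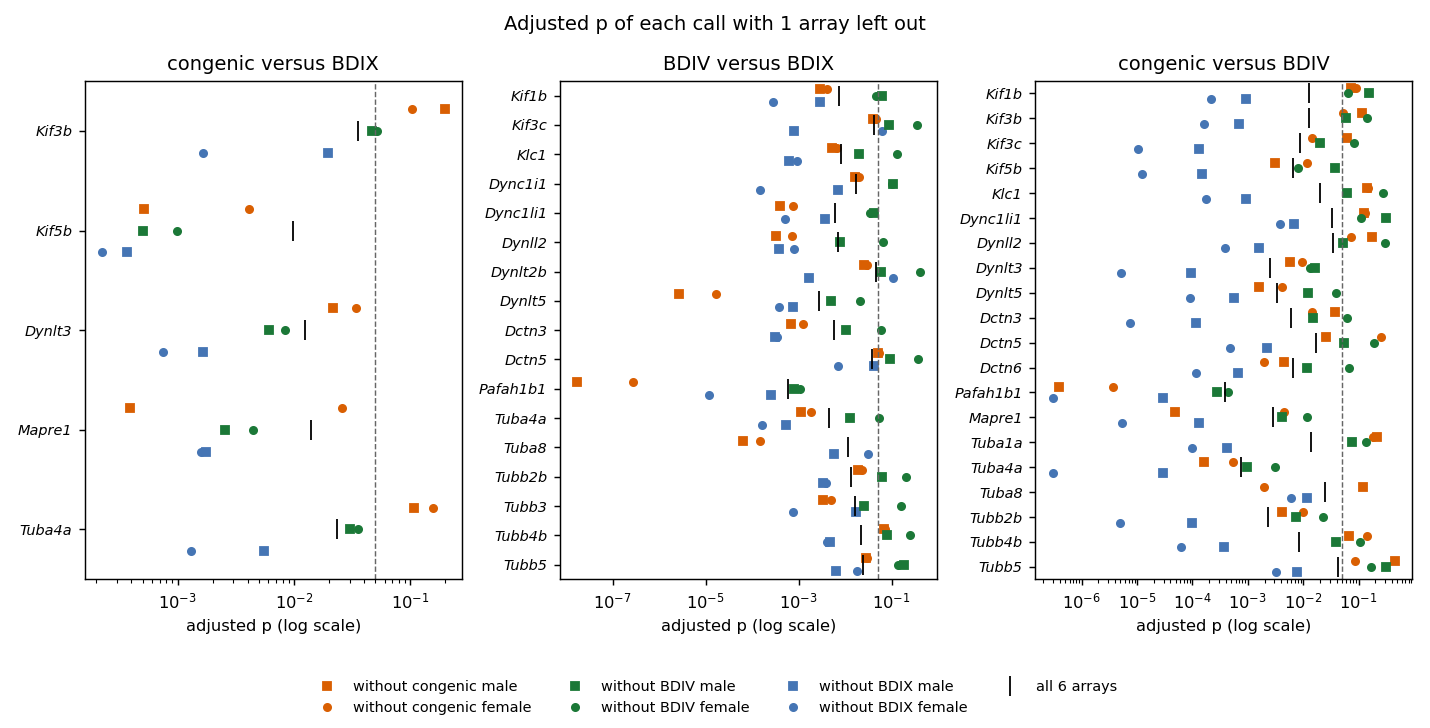
Adjusted p (log axis) of each called member with 1 array left out, coloured by the strain of that array with squares for male and circles for female, beside the value from all 6 arrays (vertical ticks) and the threshold of 0.05 (dashed). All points of Kif5b, Mapre1 and Dynlt3 in congenic versus BDIX and of Pafah1b1, Dynlt5 and Dync1li1 in BDIV versus BDIX lie left of the threshold.

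Scaling of the arrays moved the counts of the congenic. Median scaling shifted the median of all tested probes to -0.52 in the congenic against BDIX and called 22 members, 2 higher and 20 lower, in place of 1 higher and 4 lower. Of the 45 members, 20 had a congenic minus BDIX difference whose sign turned under at least 1 scaling, none of them called. Relative to that shift Kif3b, at 0.23 there, was still on the positive side. With the authors' processed values 7 members were called, 4 higher and 3 lower. Against BDIV, median scaling shifted all probes by -0.64 and called 2 members higher and 29 lower, and the authors' processed values called 9 higher and 12 lower. In BDIV against BDIX the same 2 settings called 16 higher and 2 lower, and 10 higher and 2 lower. Under the processed intensities the BDIV calls of Kif3c (adjusted p = 0.0575), Dynlt2b (0.0973), Dctn5 (0.0735), Tuba8 (0.0527) and Tubb4b (0.187) did not pass, nor did the congenic against BDIV calls of Dynll2 (0.0726), Tuba8 (0.0771) and Tubb4b (0.405).

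Sex made no difference that passed the test. Of 45 members 0 were called by limma between male and female pools, and 3 had an unadjusted p under 0.05, where 0 of all probes (0%) were called and 3.06% had such a p. The male minus female differences of largest size were in Kif22 (0.76), Kif23 (0.58) and Kif5b (-0.52), each with an adjusted p of 0.959 from limma. Within strains the male and female pools of the members differed by a median of 0.15 in the congenic, 0.09 in BDIV and 0.36 in BDIX, as absolute log2 values. Kif5b had a male minus female difference of -1.18 in BDIX, and Kif22 was higher in the male by 1.34 in BDIX and by 0.96 in the congenic. Mapre1 had a male minus female difference of 0.51 in the congenic and -0.56 in BDIX. With 1 pool of each sex per strain these gaps have no test.

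The sources used here do not state where the Mss4a segment lies, so no member was placed inside or outside it. On GRCr8, 5 members lie on chromosome 6: Kif3c, Klc1, Dync1h1, Dync2li1 and Mapre3. None of these 5 was called between the congenic and BDIX, with differences of 0.41, -0.37, 0.04, -0.00 and -0.33 in the same order. Where BDIV differed from BDIX, in Kif3c and Klc1, the congenic was the nearer to BDIX for Klc1 and had the highest mean for Kif3c. Chromosome 6 is given here as a location alone, and an effect of the segment on these members was not tested.

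Among partner genes outside the family, microtubule-associated proteins and tubulin modifiers had 11 of 33 tested higher and 4 lower in BDIV against BDIX, and 1 higher and 4 lower in the congenic. These are 33.3% and 12.1% of the list in BDIV, beside the 13.7% and 13.6% of all probes. In the congenic they are 3.03% and 12.1%, beside 4.33% and 7.56% of all probes. The list medians were 0.41 in BDIV and -0.06 in the congenic. In BDIV the 4 with the smallest p were Map1a (1.72 ± 0.25, adjusted p = 0.00534), which binds along axonal microtubules, Tppp3 (1.36 ± 0.20, 0.00554), a tubulin polymerisation factor, Stmn3 (1.31 ± 0.20, 0.00649), of the stathmin family, and the tubulin tyrosine ligase Ttl, not detected outside BDIV and at least 2.10-fold higher (0.00686). Ttl and Map2 were tested only because both BDIV arrays detected them, so their calls, counted here, had to favour BDIV. In the congenic they were Stmn1 (-1.49 ± 0.21, adjusted p = 0.0134), a destabiliser of microtubules, the tubulin deacetylase Sirt2 (-1.11 ± 0.19, 0.0222), the plus-end protein Clip1 (-1.10 ± 0.23, 0.0328) and Map1a (1.11 ± 0.25, 0.0365). Against BDIV, the congenic had 4 higher and 14 lower (12.1% and 42.4%, beside 18.1% and 18.9% of all probes). They were led by Stmn2 (-1.86 ± 0.20, adjusted p = 0.00192), also a neuronal marker, Tppp3 (-1.63 ± 0.20, 0.00235) and Stmn3 (-1.53 ± 0.20, 0.00307). Next was Ttl (at least 1.69-fold lower, 0.00335), whose direction the detection filter had set.

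**Figure D5:**
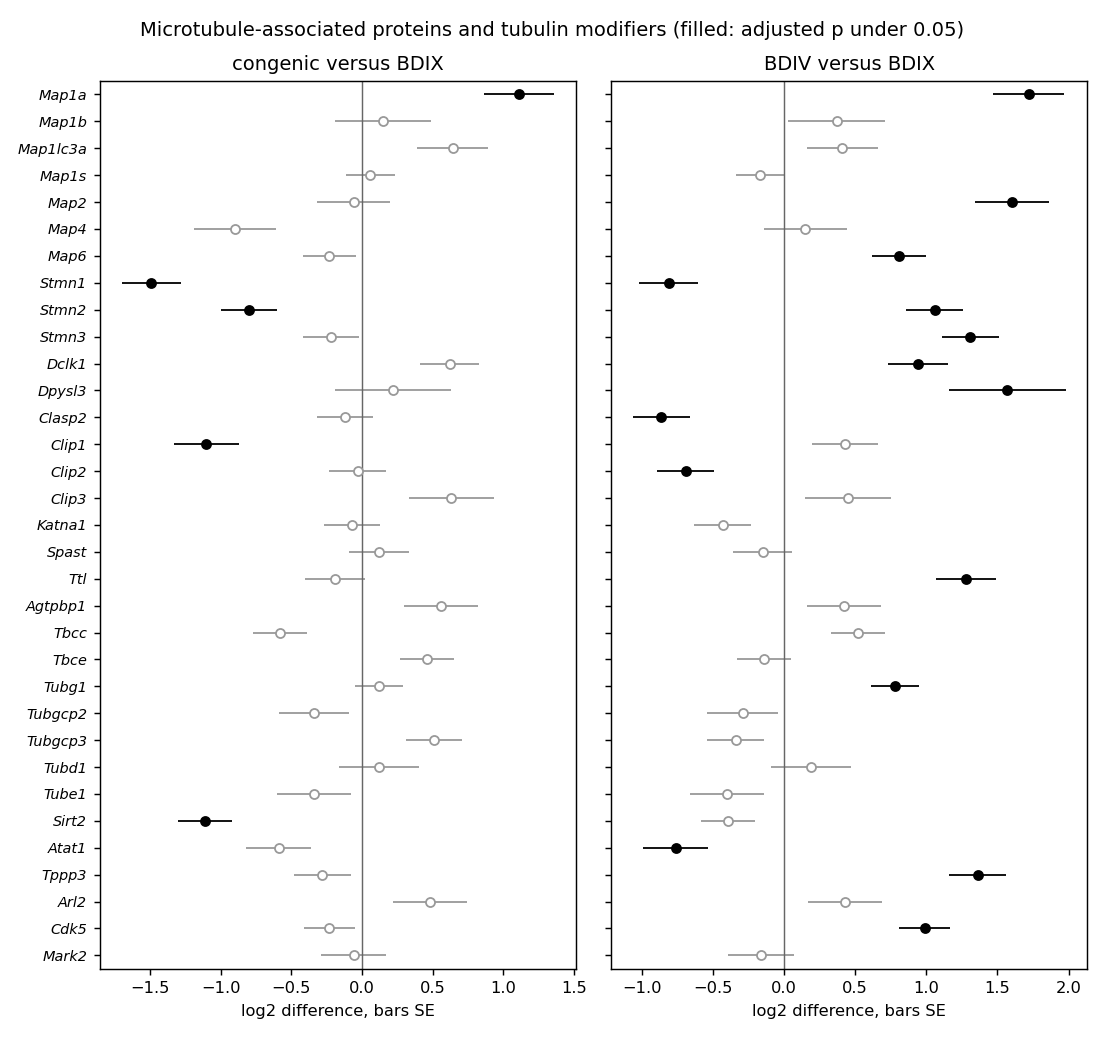
Log2 differences with SE for the 33 tested microtubule-associated proteins and tubulin modifiers, congenic minus BDIX on the left and BDIV minus BDIX on the right, with filled points for calls. Map1a lies at 1.11 on the left and 1.72 on the right, while Stmn2 lies at -0.80 on the left and 1.06 on the right.

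Of motor adaptors and cargo links, 2 of 28 tested were lower in the congenic, and 2 were higher and 2 lower in BDIV against BDIX, which is 7.14% in each case. Over all probes 7.56% were lower in the congenic, and 13.7% were higher and 13.6% lower in BDIV. The congenic calls were Spag9 (-1.16 ± 0.29, adjusted p = 0.0441), a scaffold that joins kinesin and dynein to cargo, and Fez2 (-0.87 ± 0.21, 0.0415). In BDIV they were Rab3a (1.84 ± 0.24, adjusted p = 0.00452), a GTPase of synaptic vesicles carried by Kif1b, the motor Kifc3 (-0.90 ± 0.19, 0.0157), the kinesin scaffold Mapk8ip1 (-0.74 ± 0.19, 0.0292) and the dynactin pointed-end subunit Actr10 (0.60 ± 0.18, 0.0466). The congenic against BDIV gave 3 higher and 3 lower (10.7% each, beside 18.1% and 18.9% of all probes), led by Nde1 (0.93 ± 0.17, adjusted p = 0.00755), a binding partner of Lis1, Armcx3 (-0.92 ± 0.21, 0.0149), Rab3a (-1.01 ± 0.24, 0.0178) and Trak1 (0.65 ± 0.17, 0.0237), an adaptor of mitochondria.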

How the data were processed

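Transcript levels were measured on 6 Illumina arrays, 1 per strain and sex. Per the file headers, the authors deposited a signal intensity and a detection p-value per probe. Their second table holds processed intensity values, which within an array follow the signal linearly. The slopes were 0.993 and 0.977 in the congenic male and female, 0.326 and 0.361 in BDIV and 0.482 and 0.453 in BDIX. The submitters' processing notes name BeadStudio 3.0. Of 21791 probes, 242 off that line by over 1% were left out, none of them a member. Gene symbols came from the platform annotation, with 13387 probes holding 1 symbol and 8404 none. RefSeq promoters (GRCr8) matched 55 of 62 members by gene number.

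Background was corrected by normexp from the detection p, with an offset of 16, followed by log2 and then quantile normalisation. The background fit left out 623 probes whose detection p lay off the common steps and was taken as averaged. Mean background lay between 57.9 and 84.7. The number of arrays limits the precision. Probes detected (p under 0.01) on at least 2 arrays were tested, 10484 in all, with limma 3.58.1 (R 4.3.3) on strain and sex over all 6 arrays, with 2 residual and 5.28 prior degrees of freedom and an intensity trend. The fit was tested on simulated data. Named members were those called in a strain comparison, plus others by role, and partner genes those with the 4 smallest p among the called. Alternatives covered background, offset, scaling, filter, trend, covariates, the arrays fitted and each array left out. No slide is labelled, so a slide block was not run. Members and lists were chosen with earlier results of these data known.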

Additional observations from a re-analysis of the deposited data

Results flagged for a closer look

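Dynlt1, a Tctex dynein light chain, differed in opposite directions in the sexes between BDIV and BDIX, by -0.94 in the male pools and 0.50 in the female pools. The difference between the sexes was not tested, since each is a single pair of pools, and the BDIX pools of Dynlt1 read 10.85 (male) and 9.58 (female).

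Among members left out of the tests, 3 were detected on 1 congenic array and on no BDIV or BDIX array. Dynlrb2, a dynein light chain known from cilia, read 7.32 on the congenic female array and 5.66 on the congenic male, against at most 5.40 elsewhere. The summed intensity of 5 ciliated cell markers was 295 and 407 in the congenic male and female, 291 and 291 in BDIV and 306 and 249 in BDIX, and its part in the Dynlrb2 value was not tested. The mitotic kinesin Kif18b read 6.15 on the congenic female array. Kif11, the spindle motor, read 6.44 in the congenic male pool and 6.32 in the BDIX male pool, where its averaged detection p did not pass.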

How the results depend on the processing

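Of the calls in the congenic against BDIX 3 of 5 passed whichever array was left out, and in the congenic against BDIV 7 of 20. Of the 17 calls in BDIV against BDIX, only those of Dync1li1, Dynlt5 and Pafah1b1 did so. Tuba8 passed in the 4 fits that still tested it, but without either BDIV array it was not tested. No call changed sign under any alternative except Tubb5 in the congenic against BDIV, at -0.18 under median scaling. With 1 array left out, counts of called members ranged from 3 (without either congenic array) to 16 and 15 (without the BDIX male or female) in the congenic against BDIX. They ranged from 4 and 8 (without the BDIV female or male) to 21 in BDIV against BDIX, and from 7 (without the BDIV female) and 11 (without the BDIV male or either congenic array) to 31 and 34 (without the BDIX male or female) in the congenic against BDIV. Median scaling called 22 members in the congenic against BDIX and 31 against BDIV, and the fit on the 4 congenic and BDIV arrays alone called 34. The cause was not tested. Over all probes, median scaling called 41.2% in the congenic against BDIX, where 2.39% of the calls were higher in place of 36.4%. It called 56.4% against BDIV (8.42% of them higher, in place of 49.0%) and 32.4% in BDIV against BDIX (63.0% of them higher, in place of 50.2%). The other settings, among them no replicate block (no sex covariate; 6, 18 and 22 calls in the 3 strain comparisons), left each count within 1.5 times its value, and male versus female stayed at 0. With the authors' processed values 4 of 5, 12 of 17 and 17 of 20 calls passed. Further calls lost, by adjusted p, were Dynlt2b (0.0687) and Dctn5 (0.0622) in BDIV against BDIX and Tuba8 (0.0508) and Tubb5 (0.0631) in the congenic against BDIV with no detection filter, Dctn5 (0.052) and Tubb5 (0.0581) in the same comparisons with no intensity trend, Tubb5 (0.0575) under cyclic loess, Dynll2 (0.0563) without the sex covariate, and Kif3b (0.0515) against BDIX and Dctn5 (0.0559) and Tubb4b (0.0681) in BDIV on the arrays of the 2 groups alone. Weak signal limits Dctn6 and Tuba8, which were not detected in 1 or 2 strains.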
